A study of Mus musculus with 18 samples.

Results

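The ribosome biogenesis genes described here are 40 genes, listed by symbol, whose products transcribe, modify, cut and fold ribosomal RNA or assemble it with ribosomal proteins. They were named by symbol as members of the pathway. All 40 were on the array, which read 18194 genes in all, and all 40 were among the 10916 genes tested. The list held 4 genes of RNA polymerase I, 8 of the small nucleolar ribonucleoproteins (snoRNPs), 5 nucleolar scaffold and chaperone genes, 12 of the small subunit pathway and 11 of the large subunit pathway.

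Ribosomes are built in the nucleolus, where RNA polymerase I transcribes one long precursor of the ribosomal RNAs. Guide RNAs in snoRNPs direct methylation and pseudouridylation of that precursor, the small subunit processome cuts and folds its first part, and large subunit factors assemble the rest. The pathway is known as a target of Myc proteins and as one linked to p53: when assembly stalls, free ribosomal proteins bind Mdm2, the ubiquitin ligase that degrades p53.

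The series profiled TKO mouse cells, labelled as telomere dysfunctional, grown in DMEM with FBS, on expression arrays. One set of cells expressed p53ER, a fusion of p53 with the estrogen receptor that becomes functional on adding 4-hydroxytamoxifen (4-OHT), and the other set was uninfected. Each set was taken at 0 h, after 4 h with vehicle and after 4 h with 100 nM 4-OHT, giving 6 groups of 3 arrays. The 4 h time was chosen to look for potential direct targets of p53. All 6 groups share the TKO background. No group of cells infected with an empty vector is labelled, so effects of p53ER and of infection cannot be told apart. They number the arrays of each group 1 to 3 without saying what a number stands for or whether the arrays came from separate cultures. The p-values therefore rest on the spread between arrays, and that spread may be technical.

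Values are log2 signals after every array was scaled to a common mean, with 1 probe set per gene, and a gene was called changed at a limma p below 0.05 after Benjamini-Hochberg adjustment over all 10916 genes. Before scaling, the trimmed mean signal of the arrays ran from 47.5 to 148. All 8 mesenchymal markers were above the filter on dim genes, against 3 of 6 epithelial, 2 of 5 blood and 2 of 5 endothelial markers, and Cdh1, Ptprc and Pecam1 were below it. Mdm2, read as a check on the fusion, rose in p53ER cells from 7.598 ± 1.02 with vehicle to 10.5 ± 0.64 with 4-OHT (mean ± SD, n = 3, adjusted p = 0.0329). In all, 3 arrays lay apart from the rest in their overall profile, namely uninfected 0 h replicate 2, p53ER vehicle replicate 1 and p53ER 0 h replicate 3, and replicate 3 of every group differed from replicates 1 and 2. The first question below is whether activation of p53ER moved the 40 genes, and the later ones concern time, the presence of p53ER and the replicate number.

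**Figure D1:**
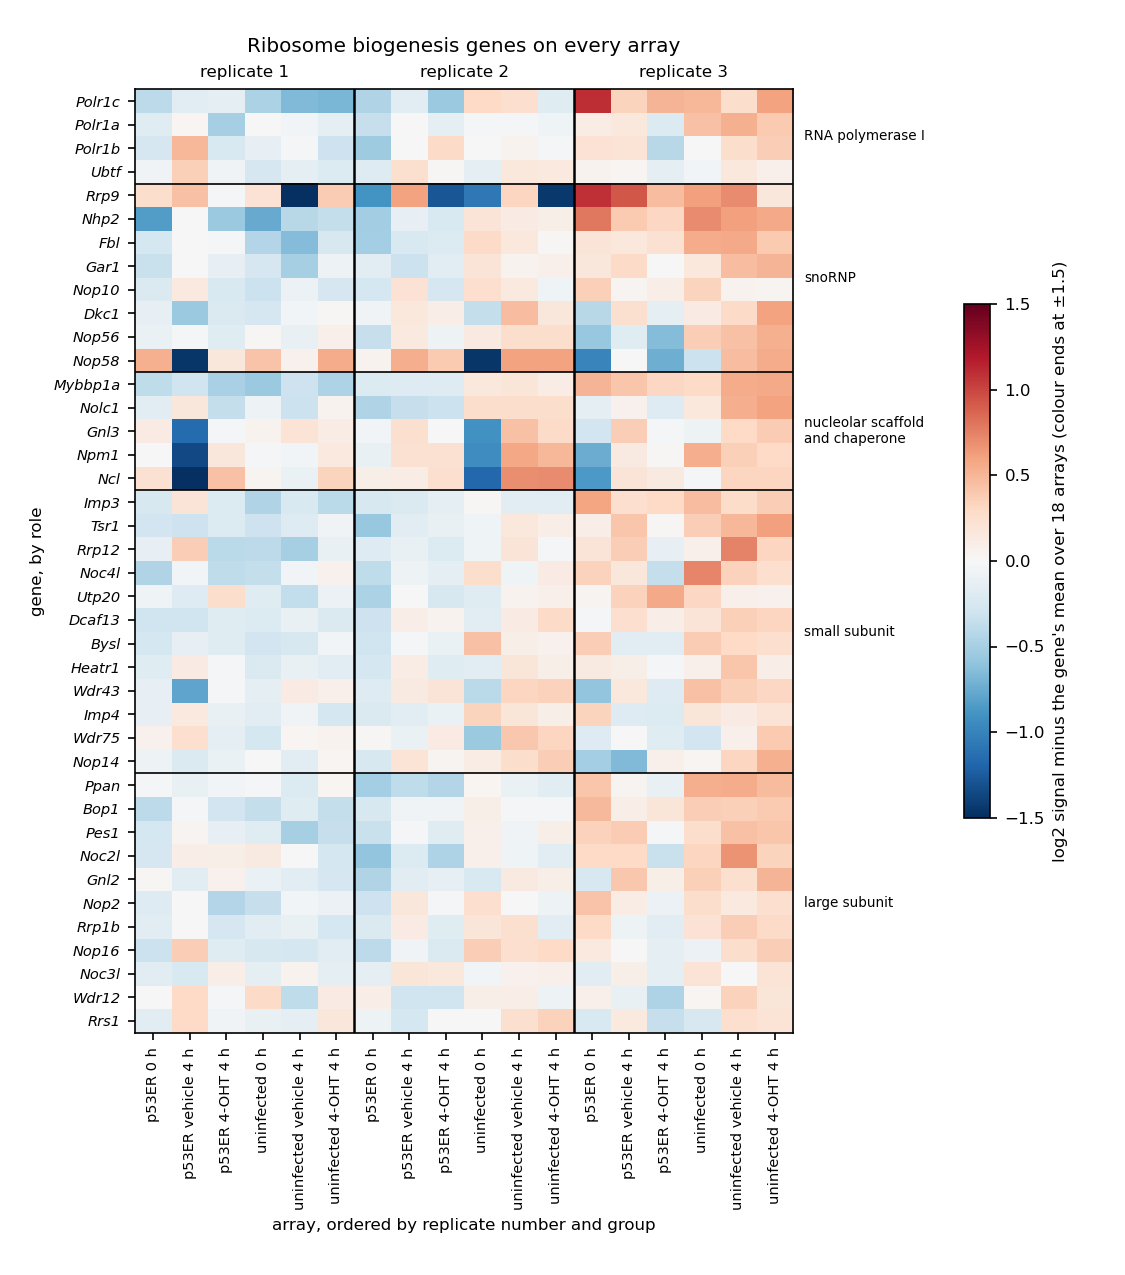
Log2 signal of the 40 genes on each of the 18 arrays, as the difference from the gene's mean over the arrays; rows are genes by role and columns are arrays by replicate number and group. Replicate 3 is mostly red, with a median over the 40 genes of 8.55 to 8.88 per array against 8.32 to 8.73 in replicates 1 and 2, while Ncl, Npm1 and Nop58 are dark blue on single arrays.

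Activation of p53ER for 4 h was followed by no called change in the 40 genes. With limma, 0 of 40 passed the threshold, also with the replicate number as a block, and 0 had an unadjusted p below 0.05 (3.22% of all genes had one). Over all genes tested, 2 (0.0183%) passed, or 8 (0.0733%) with the block. The median difference of the 40, 4-OHT minus vehicle, was -0.098 on the log2 scale, against -0.012 over all genes tested, and 31 of the 40 had a negative difference, against 51.9% of all genes. The 95% interval of a member reached 0.48 to either side at the median.

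For 8 members all 3 arrays with 4-OHT lay below all 3 with vehicle, and for 0 members they lay above. Over all genes tested, 3.98% lay below and 3.39% above. The 8 came from 3 roles: Polr1a and Ubtf of RNA polymerase I, Heatr1, Noc4l and Rrp12 of the small subunit pathway, and Nop2, Nop16 and Rrp1b of the large subunit pathway. These readings are from 1 probe set per gene. A further probe set of Polr1a also separated downward, while others of Polr1a, Rrp1b, Noc4l and Heatr1 overlapped.

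All 4 RNA polymerase I members had negative differences, with a median of -0.30. Polr1a, the largest subunit of the enzyme, read 7.68, 7.65 and 7.81 with vehicle and 7.15, 7.51 and 7.45 with 4-OHT. The groups did not overlap, and the difference was -0.34 (SE 0.20, adjusted p = 0.998 with limma). With the block the adjusted p was 0.907. Ubtf, the factor that binds ribosomal DNA and recruits the polymerase, read 8.91, 8.79 and 8.58 with vehicle and 8.49, 8.57 and 8.40 with 4-OHT. Its groups did not overlap either, with a difference of -0.27 (SE 0.15). Polr1b, the next largest subunit, differed by -0.35 and Polr1c, a subunit shared with RNA polymerase III, by -0.062, both with overlapping groups.

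Rrp12, which takes part in the export of precursor subunits, read 6.23, 5.74 and 6.23 with vehicle and 5.45, 5.65 and 5.73 with 4-OHT. All of its 4-OHT arrays were lower than the lowest vehicle array, by a narrow margin over replicate 2, and the difference was -0.46 (SE 0.28). Nop2, a methyltransferase of the large subunit RNA, read 8.80, 8.97 and 8.91 with vehicle and 8.37, 8.77 and 8.71 with 4-OHT. Its 4-OHT values were again all below the vehicle values, with a difference of -0.28 (SE 0.20). The other 4 of the 8 differed by between -0.31 (Noc4l) and -0.19 (Heatr1).

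The widest differences belonged to genes that were uneven between replicates. Rrp9, the U3 snoRNP protein, differed by -0.95 (SE 0.67), and Ncl, the RNA-binding scaffold nucleolin, by 0.73 (SE 0.45). Ncl and the nucleolar chaperone Npm1 (0.47) were low on p53ER vehicle replicate 1, an array that lay apart. Without the 3 arrays that lay apart, Ncl differed by 0.12 and Npm1 by -0.041, and Gnl3, nucleostemin, turned from 0.17 to -0.32. Without those arrays the median of the 40 was -0.17 and 35 differences were negative, against 51.9% of all genes. In that fit 0 members were called and 1, Gnl3, had an unadjusted p below 0.05, against 0.0275% and 3.48% of all genes. The p53ER vehicle group then holds no replicate 1, while the 4-OHT group holds all 3 numbers. Replicate 1 read lower in these genes, with medians of 0.13 for replicate 2 minus 1 and 0.25 for replicate 3 minus replicates 1 and 2. The 2 groups are therefore not balanced in that fit.

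Genes of the same pathway outside the list gave a similar picture. Of 37 other small subunit genes tested, 27 had negative differences (median -0.10), as had 22 of 35 other large subunit genes (median -0.10), 7 of 11 other RNA polymerase I genes, 5 of 5 other snoRNP genes and 9 of 13 genes of the RNA exosome, the nuclease that trims precursor RNA. These lists held 0 genes called with limma, and 1 gene of the exosome and 0 of the others had an unadjusted p below 0.05. Ribosomal protein genes, 43 of which were tested, had a median of -0.033, 0 calls and 0 at an unadjusted p below 0.05 with limma.

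In uninfected cells, 4-OHT against vehicle gave no called member (0 of 40 with limma, also with the block, and 0 at an unadjusted p below 0.05, against 0.77% of all genes). Over all genes, 0 (0%) were called. The median of the 40 was 0.014, 22 were above 0 against 49.2% of all genes, and in 0 members did the groups separate, where 2.38% of all genes lay above and 1.91% below. The difference between the 4-OHT effects of p53ER and uninfected cells was tested directly. It had a median of -0.076 over the 40, with 30 negative against 50.5% of all genes. With limma 0 members were called, also with the block, and 0 had an unadjusted p below 0.05. Of all genes 0 (0%) were called, 1 (0.00916%) with the block, and 1.56% had an unadjusted p below 0.05. The 40 genes were therefore not shown to respond to 4-OHT differently in the 2 kinds of cells.

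**Figure D2:**
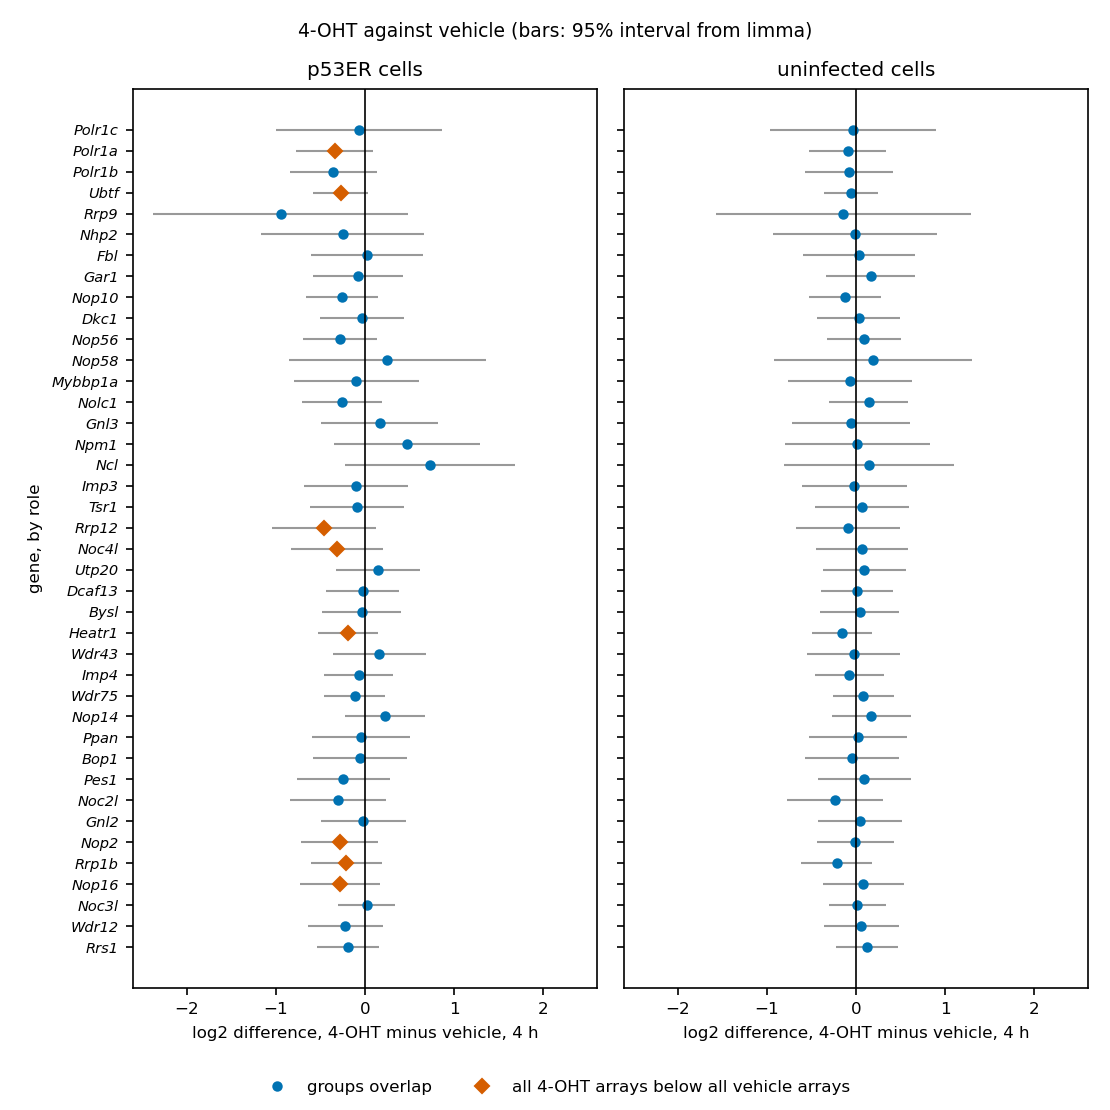
Log2 difference between 4-OHT and vehicle at 4 h for each of the 40 genes in p53ER cells (left) and uninfected cells (right), with 95% intervals from limma. Diamonds mark the 8 genes whose 4-OHT arrays all lay below the vehicle arrays in p53ER cells, and the intervals of all 40 genes include 0 in both panels.

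The 4 h arrays were then set against the 0 h arrays. Over both kinds of cells and both treatments, 0 of 40 members were called with limma, also with the block, and 1 had an unadjusted p below 0.05, against 9.16% of all genes. Of all genes 2 (0.0183%) were called, or 65 (0.595%) with the block. Of the members 29 were higher at 4 h, with a median of 0.11, where 41.4% of all genes were higher and the median of all was -0.042. All 5 scaffold and chaperone members were higher, with a median of 0.28, and Ncl, Npm1 and Gnl3 among them were low on the arrays that lay apart, of which 2 are 0 h arrays. Without those arrays 37 of 40 members were higher, against 44.4% of all genes, with a median of 0.16. In that fit 0 were called and 2 had an unadjusted p below 0.05, against 0.0824% and 8.33% of all genes. In that fit the p53ER 0 h group holds no replicate 3, the uninfected 0 h group no replicate 2 and the p53ER vehicle group no replicate 1. The 4 h and 0 h arrays are therefore not balanced by replicate number there.

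Wdr75, a small subunit processome protein that also supports transcription of the precursor, was the member with the lowest p. In uninfected cells it read 7.68, 7.39 and 7.65 at 0 h, 7.97, 8.35 and 8.02 after 4 h with vehicle and 7.99, 8.26 and 8.34 with 4-OHT. All 6 of the 4 h arrays were above the 3 of 0 h. The difference was 0.54 (SE 0.16, adjusted p = 0.829) with vehicle and 0.62 (SE 0.16, adjusted p = 0.878) with 4-OHT, so it did not pass in either. Both comparisons share the 0 h arrays. In p53ER cells Wdr75 read 8.004, 7.96 and 7.76 at 0 h and 8.19, 7.84 and 7.94 with vehicle, and these overlapped.

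Each kind of cell and treatment was also taken by itself. In uninfected cells the groups separated upward in 5 members with 4-OHT (Ncl, Gnl3, Rrs1, Nop58 and Wdr75, against 4.65% of all genes) and in Gnl3 and Wdr75 with vehicle (against 4.17%). No member separated downward in either, against 6.71% and 7.29% of all genes. In the first comparison 0 members were called with limma, also with the block, as were 0 (0%) of all genes. An unadjusted p below 0.05 was had by 2 members and 4.96% of all genes. In the second, 0 members and 0 (0%) of all genes were called in both fits, and 1 member and 5.64% of all genes had an unadjusted p below 0.05. Nop58, a core protein of the methylation guide snoRNPs, differed by 1.02 with 4-OHT and by 0.52 without the 0 h array that lay apart. Ncl went likewise from 0.84 to 0.44.

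In p53ER cells, vehicle at 4 h against 0 h gave a median of 0.17, with 30 members higher against 44.6% of all genes. It gave 0 called members with limma, also with the block, and 0 at an unadjusted p below 0.05, against 0 (0%) and 3.05% of all genes. In 0 members did the groups separate, against 2.4% of all genes upward and 3.62% downward. The same cells with 4-OHT against 0 h gave a median of 0.0079 and 21 members higher, against 44.9% of all genes. In it 0 members were called, also with the block, and 0 had an unadjusted p below 0.05, against 4.14% of all genes. Of all genes 2 (0.0183%) were called there, or 19 (0.174%) with the block. In that comparison Npm1 lay above 0 h on every array and Wdr12, of the complex with Pes1 and Bop1, lay below, against 4.56% and 6.29% of all genes.

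Cells with p53ER had lower readings of most members than uninfected cells, and no single gene passed. With 4-OHT in both, 36 of 40 members were lower in p53ER cells and the median was -0.21, where 49.6% of all genes were lower and the median of all was 0.0026. Without 4-OHT, over the 0 h and vehicle arrays, 33 were lower with a median of -0.13, against 50.5% of all genes. Single arrays moved both medians by more than 1.5 times: without uninfected 4-OHT replicate 3 the first was -0.095 and without uninfected 4-OHT replicate 1 it was -0.32, and without uninfected vehicle replicate 3 the other was -0.060 and without uninfected vehicle replicate 1 it was -0.19. The latter median was also -0.073 without uninfected 0 h replicate 3, -0.078 without p53ER vehicle replicate 1 and -0.080 without p53ER 0 h replicate 2. With limma 0 members were called in either comparison, also with the block, and 3 and 2 had an unadjusted p below 0.05, against 3.84% and 3.43% of all genes. Of all genes, 8 (0.0733%) were called with 4-OHT and 2 (0.0183%) without, or 16 (0.147%) and 1 (0.00916%) with the block.

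With 4-OHT, 8 members lay below the uninfected arrays on every p53ER array and 0 lay above, against 5.73% and 5.49% of all genes. They were Nop56, Nop58, Gnl3, Nolc1, Bysl, Noc4l, Rrp12 and Rrs1, each by the probe set used. Further probe sets of Nop56, Nolc1 and Rrs1 also lay below on every array, while those of Bysl and Noc4l overlapped. Nop56, the partner of Nop58 in the methylation guide snoRNPs, read 9.45, 9.55 and 8.98 in p53ER cells and 9.70, 9.90 and 10.2 in uninfected cells. The difference was -0.59 (SE 0.20, unadjusted p = 0.00782, adjusted p = 0.991). Nolc1, a chaperone of snoRNPs, read 8.70, 8.73 and 8.86 against 9.11, 9.32 and 9.66, a difference of -0.60 (SE 0.21). Rrs1, which helps to place the 5S ribonucleoprotein, differed by -0.37 (SE 0.16). In the untreated cells Nop56 differed by -0.37 (SE 0.14) and Nop14, the partner of Noc4l, by -0.34 (SE 0.15). By the probe set used, untreated Nop56 read 9.06 to 9.78 in p53ER cells and 9.52 to 10.07 in uninfected cells. Its other probe set read closer, at 8.90 to 9.49 and 9.16 to 9.63.

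The pathway genes outside the list stood on the same side. With 4-OHT, 33 of 37 other small subunit genes, 32 of 35 other large subunit genes and 13 of 13 exosome genes were lower in p53ER cells, with medians of -0.18, -0.19 and -0.22 and 0 calls (2, 0 and 1 at an unadjusted p below 0.05 with limma). Ribosomal protein genes were on the other side, with 37 of 43 higher, a median of 0.14, 0 calls and 0 at an unadjusted p below 0.05 with limma. Of the Myc network genes, Mxd4, a Myc antagonist of the Mad family, rose by 1.14 (SE 0.17, adjusted p = 0.0117). Mycn was read by a probe set at 11.3 to 13.9 in p53ER cells and 3.60 to 6.66 in uninfected cells (difference with 4-OHT 6.81, adjusted p = 0.0113), and its other 2 probe sets were at or below 4.73 in all arrays. Myc itself overlapped, at 8.42 to 9.16 in p53ER cells and 8.73 to 9.26 in uninfected cells.

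The clearest pattern in the 40 genes followed the replicate number. Replicate 3 was higher than replicates 1 and 2 in 17 of the 40 members and lower in 0, in a limma fit with the group and the number as terms. Over all genes tested, 21.2% were called in either direction, 1157 (10.6%) higher and 1155 lower. The median difference of the 40 was 0.25, against -0.0012 over all genes tested, and 35 of the 40 were positive, against 49.8%. The test over all 3 numbers called 13 members, against 16.8% of all genes. Replicate 2 against replicate 1 gave 0 called members and 1 (0.00916%) of all genes, with 4 members and 7.86% of all genes at an unadjusted p below 0.05. The replicate number is not a condition that the labels explain, so these are differences between arrays and not between treatments.

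Among the RNA polymerase I members, Polr1c rose by 0.83 (SE 0.16, adjusted p = 0.00144) and Polr1a by 0.36 (SE 0.087, adjusted p = 0.00784). Polr1b and Ubtf, at 0.16 and 0.030, did not pass. Polr1c read 9.13 at the lowest, 9.38 at the median and 9.98 at the highest in the 6 arrays of replicate 3. In the other 12 arrays it read 8.19, 8.59 and 9.17. The ranges overlapped by a small margin, while in each of the 6 groups replicate 3 was the highest array.

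Of the 8 snoRNP members, 4 rose. Nhp2, of the pseudouridylation snoRNPs, read 10.9, 11.2 and 11.4 (lowest, median and highest) in replicate 3 and 9.75, 10.3 and 10.8 in the other arrays. Every replicate 3 array was above every other array, and the difference was 0.85 (SE 0.12, adjusted p = 0.000136). Fbl, fibrillarin, the methyltransferase of the methylation guide snoRNPs, rose by 0.52 (SE 0.12, adjusted p = 0.00671), and Gar1, a partner of Nhp2, by 0.40 (SE 0.099, adjusted p = 0.00866). Rrp9 rose by 1.00 (SE 0.33, adjusted p = 0.0464). It was low on several arrays of replicates 1 and 2, down to 5.55, while its lowest replicate 3 array read 7.22. In the test over all the replicate numbers Rrp9 did not pass (adjusted p = 0.0770 with limma). The other subunits of the same particles did not pass by the probe sets used. Nop10 was at 0.23, the pseudouridine synthase Dkc1 at 0.18, Nop56 at -0.014 and Nop58 at -0.26. A further probe set of Dkc1 stood at 0.53 and passed (adjusted p = 0.0142 with limma over all annotated probe sets).

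Mybbp1a, a nucleolar protein that binds Myb, was the member with the lowest p and the only 1 of the 5 scaffold and chaperone genes to pass. It read 10.86, 11.04 and 11.15 (lowest, median and highest) in replicate 3 and 10.02, 10.32 and 10.76 in the other arrays, again without overlap. The difference was 0.66 (SE 0.078, adjusted p = 2.53e-05). Nolc1 (0.26), Gnl3 (0.16), Npm1 (0.15) and Ncl (0.022) did not pass.

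In the small subunit pathway 5 of 12 members rose. Imp3, a U3-associated protein, rose by 0.56 (SE 0.096, adjusted p = 0.000625) and Tsr1, a late factor of the precursor of the small subunit, by 0.51 (SE 0.083, adjusted p = 0.000469). Noc4l rose by 0.37, Utp20 by 0.35 and Dcaf13, a processome protein, by 0.30. Imp3 had no overlap, with a lowest value of 8.79 in replicate 3 and a highest of 8.74 elsewhere. Rrp12, at 0.39, was highest in replicate 3 in all 6 groups but missed the threshold (adjusted p = 0.0604).

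In the large subunit pathway 5 of 11 members rose, among them Pes1 by 0.45 (SE 0.096, adjusted p = 0.00314) and Bop1 by 0.47 (SE 0.085, adjusted p = 0.000925). The partner of both in the same complex, Wdr12, was at 0.015 and did not pass. Ppan, an early assembly factor, rose by 0.48, Noc2l by 0.40 and Gnl2, a GTPase, by 0.34. Bop1 read 9.39 to 9.78 in replicate 3 and 8.90 to 9.39 in the other arrays, touching without overlap.

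All 6 replicate 3 arrays lay above all 12 others in 4 members, Mybbp1a, Nhp2, Imp3 and Bop1, against 1.89% of all genes. In 10 members replicate 3 was the highest array of each of the 6 groups, against 5.21% of all genes. Taken within each kind of cell, 9 members were called higher in p53ER cells, against 7.37% of all genes, with a median of 0.19. In uninfected cells 15 were, against 6.54%, with a median of 0.34. The difference between the 2 was called for Nop56 alone, against 0.889% of all genes. By the probe set used, Nop56 stood at -0.37 in p53ER cells and 0.34 in uninfected cells. Its other probe set stood at 0.27 and 0.17, and so did not show a lower replicate 3 in p53ER cells.

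**Figure D3:**
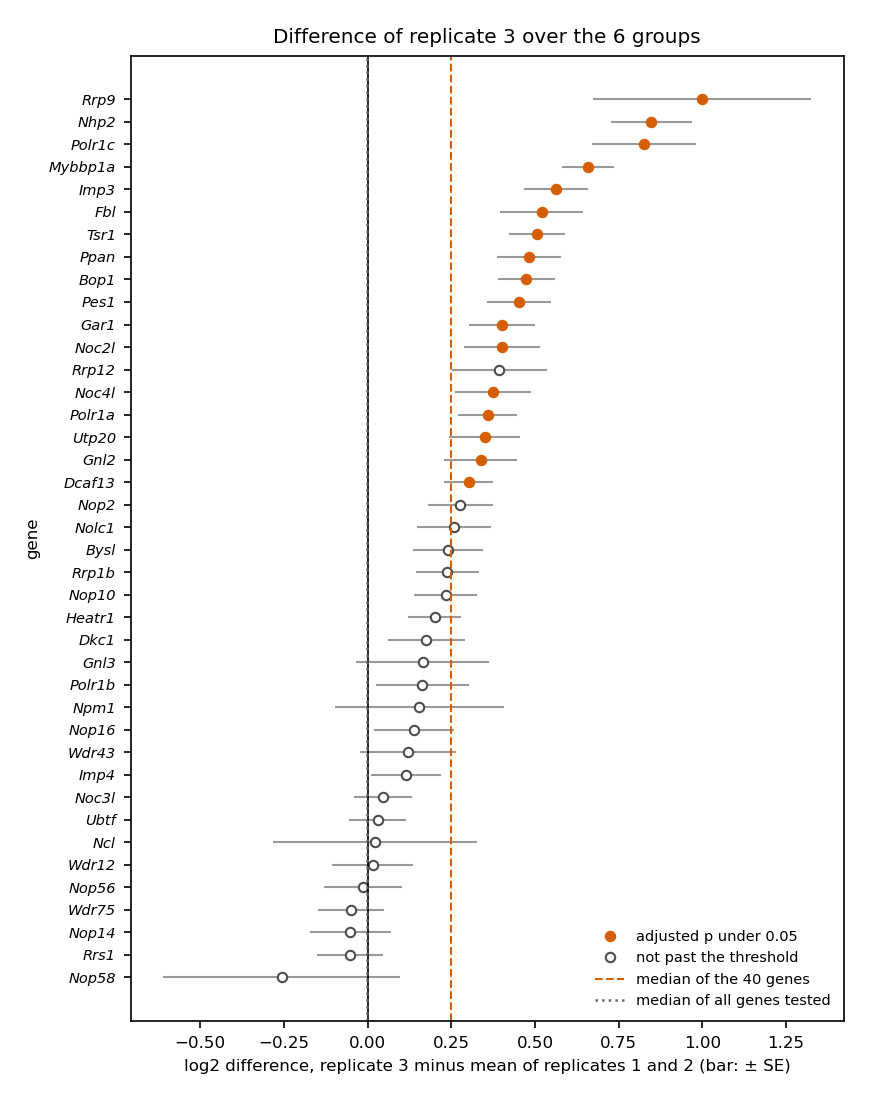
Log2 difference between replicate 3 and the mean of replicates 1 and 2 over the 6 groups for each of the 40 genes, with its SE; filled points passed the threshold. The 17 filled points run from 0.30 for Dcaf13 to 1.00 for Rrp9, and the medians of the 40 genes (0.25) and of all genes tested (-0.0012) are drawn as lines.

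**Figure D4:**
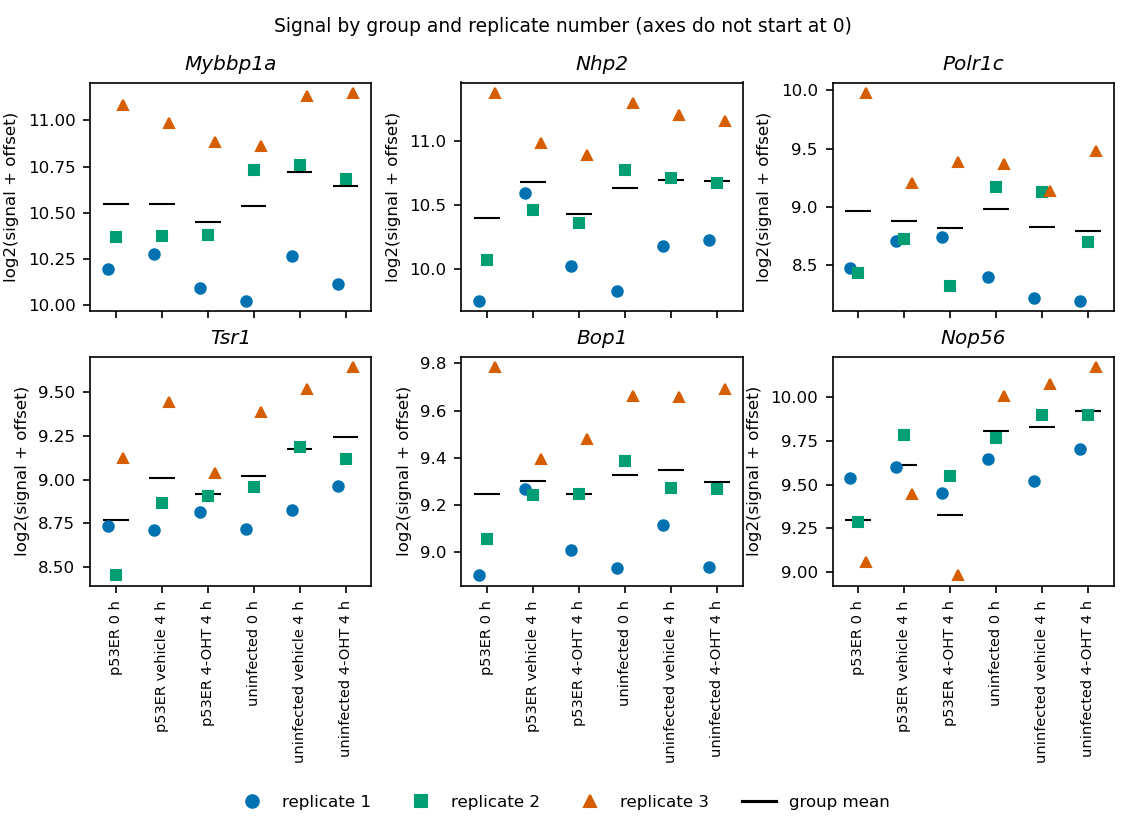
Log2 signal of 6 genes on each array by group, with the replicate number as colour and shape and the group mean as a line. Replicate 3 is the highest array of every group for Mybbp1a, Nhp2, Polr1c, Tsr1 and Bop1, whereas for the Nop56 probe set plotted, and not for its other one, it is the highest in the 3 uninfected groups and the lowest in the 3 p53ER groups.

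Several measures of the arrays moved with the replicate number, and their part in the result was not tested. The ratio of the 3' to the 5' control probe sets of Gapdh was 0.860 to 0.950 in replicate 3 and 0.782 to 0.841 in the other arrays, without overlap. The same ratio for actin overlapped, at 1.002 to 1.13 against 1.05 to 1.22. The trimmed mean before scaling was 47.5 to 73.5 in replicate 3 and 58.1 to 148 elsewhere. Of the 8 mesenchymal markers 4 fell in replicate 3 (Pdgfrb by 1.54), and their summed signal was 28395 to 36703 against 33374 to 51303. Of the markers of other cells that were tested, Epcam fell by 0.60, Kdr by 0.48 and Csf1r by 0.44, and Cd74 rose by 0.62. Of 6 p53 target genes read as a check 3 rose over all groups, Trp53inp1 by 1.002, Cdkn1a by 0.96 and Mdm2 by 0.72. Within p53ER cells the median of the 6 was 1.17 and 4 were called higher, against 7.37% of all genes. Within uninfected cells it was 0.23 and 0 were called, against 6.54% of all genes called higher. Esr1, the gene of the estrogen receptor, read 9.40 to 10.5 in the 3 p53ER arrays of replicate 3 and 6.96 to 7.84 in the other 6 p53ER arrays. With quantile normalization in place of scaling, all 17 members called higher in replicate 3 were still called.

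Other genes of the pathway mostly moved in the same direction in replicate 3, where 10.6% of all genes were called higher and 10.6% lower. Of 37 other small subunit genes 8 rose and 0 fell, led by Aatf (0.56) and Utp14a (0.54), both processome proteins. Of 35 other large subunit genes 9 rose, led by Rsl24d1 (0.71), and 3 fell, led by Ddx18, at -0.46. In the exosome 3 of 13 rose (Exosc4 by 0.54) and among other snoRNP genes 2 of 5. Among 11 other RNA polymerase I genes Polr2f alone rose (0.72), a subunit shared by several polymerases, which is near the share of all genes. Ribosomal protein genes rose in 21 of 43, led by Rpl8 (0.72), and fell in 0. Of 9 Myc network genes, Mlx rose by 0.38 and Mxd3 fell by 0.55.

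Of the 40 members, 28 were read by more than 1 probe set, 83 in all. For 10 of the 17 members called, further probe sets passed the same filter, 13 in all. Of these 13, 12 were higher in replicate 3 and 6 were called. Among the members not called, a further probe set of Dkc1 was called higher.

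The promoters of members that rose together in replicate 3 were searched for the letters CACGTG, the E-box that Myc proteins are known to bind, which reads the same on both strands. The windows ran from 250 bases before to 50 after the annotated start, 300 bases in all, in the RefSeq promoter table of GRCm38.p6, which held 33 of the 40 members. The match was in 7 of the 33 (Imp4, Mybbp1a, Nop2, Pes1, Tsr1, Utp20 and Wdr43), or 21.2%, against 8.09% of all 27025 genes of the table. It was in 4 of the 13 members of the table that rose in replicate 3 and in 3 of the other 20. Among the other biogenesis and exosome genes 18 of 90 held it and among the ribosomal protein genes 10.3%. These are matches of letters and not measured sites.

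The promoters of Mybbp1a, Tsr1 and Pes1 are shown because these genes rose in replicate 3, were highest there in all 6 groups and held the match. Nhp2, Polr1c and Imp3 also rose and were highest in all 6 groups, and their promoters in the table held no match. The promoters shown lie on chromosome 11, on the plus strand, and are written with the E-box in capitals and the annotated start at base 251. Their windows are Mybbp1a (chr11:72441077-72441376, match at bases 291 to 296), Tsr1 (chr11:74897830-74898129, bases 275 to 280) and Pes1 (chr11:3963725-3964024, bases 253 to 258).
Mybbp1a: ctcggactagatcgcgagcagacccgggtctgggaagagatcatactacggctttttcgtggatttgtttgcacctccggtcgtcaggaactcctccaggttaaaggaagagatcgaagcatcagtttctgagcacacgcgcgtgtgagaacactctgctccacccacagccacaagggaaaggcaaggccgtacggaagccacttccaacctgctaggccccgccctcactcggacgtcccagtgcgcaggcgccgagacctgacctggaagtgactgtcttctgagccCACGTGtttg
Tsr1: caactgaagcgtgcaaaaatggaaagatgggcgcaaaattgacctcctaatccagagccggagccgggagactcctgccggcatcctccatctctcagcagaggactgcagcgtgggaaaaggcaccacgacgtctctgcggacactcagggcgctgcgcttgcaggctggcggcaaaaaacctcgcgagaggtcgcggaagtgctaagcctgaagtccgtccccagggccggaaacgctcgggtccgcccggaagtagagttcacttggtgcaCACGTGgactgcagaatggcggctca
Pes1: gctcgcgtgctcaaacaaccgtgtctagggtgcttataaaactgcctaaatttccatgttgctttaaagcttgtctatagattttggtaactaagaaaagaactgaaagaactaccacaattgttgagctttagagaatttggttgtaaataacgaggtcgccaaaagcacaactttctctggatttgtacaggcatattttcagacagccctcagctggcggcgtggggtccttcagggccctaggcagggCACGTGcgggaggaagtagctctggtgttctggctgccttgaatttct
In all 3 the match lay just after the annotated start. The table did not list Dcaf13, Fbl, Npm1, Rrp12, Rrs1, Gnl2 or Bop1.

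Apart from the replicate number, a few members were uneven between single arrays. Ncl read 9.59 on p53ER vehicle replicate 1, 10.1 on uninfected 0 h replicate 2 and 10.4 on p53ER 0 h replicate 3, and 11.19 to 12.002 on the other 15. The 3 low arrays were those that lay apart, in 3 different groups. Npm1 read 10.2, 10.7 and 10.9 on the same arrays and Nop58 7.24, 7.24 and 7.72. These 3 members were lower by more than 0.5 on each of the 3 arrays than the mean of the other 2 arrays of its group. So were 7.11% of all genes tested, a share close to that of 3 among the 40. On uninfected 0 h replicate 2, 15% of members were that much lower, against 17.9% of all genes. On p53ER vehicle replicate 1 it was 15% against 19.1%, and on p53ER 0 h replicate 3 it was 7.5% against 20.2%. Low readings on these arrays were therefore not particular to the members. Of 5 probe sets of Ncl 4 were low on all 3, as were both of Npm1. Gnl3, Wdr43 and the pseudouridine synthase gene Dkc1 were also lower than the other 2 arrays of the group on each of the 3 arrays. The median difference of the 40 was 0.010 on uninfected 0 h replicate 2, -0.039 on p53ER vehicle replicate 1 and 0.40 on p53ER 0 h replicate 3, which is also a replicate 3 array.

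Rrp9 was uneven in another way. It read 5.55 to 6.15 on 5 arrays, namely uninfected vehicle replicate 1 and replicate 2 of p53ER 0 h, p53ER 4-OHT, uninfected 0 h and uninfected 4-OHT, and 7.01 to 8.14 on the other 13. The low arrays came from 5 groups and none was of replicate 3. The array has 1 probe set for Rrp9, so no second reading was at hand.

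**Figure D5:**
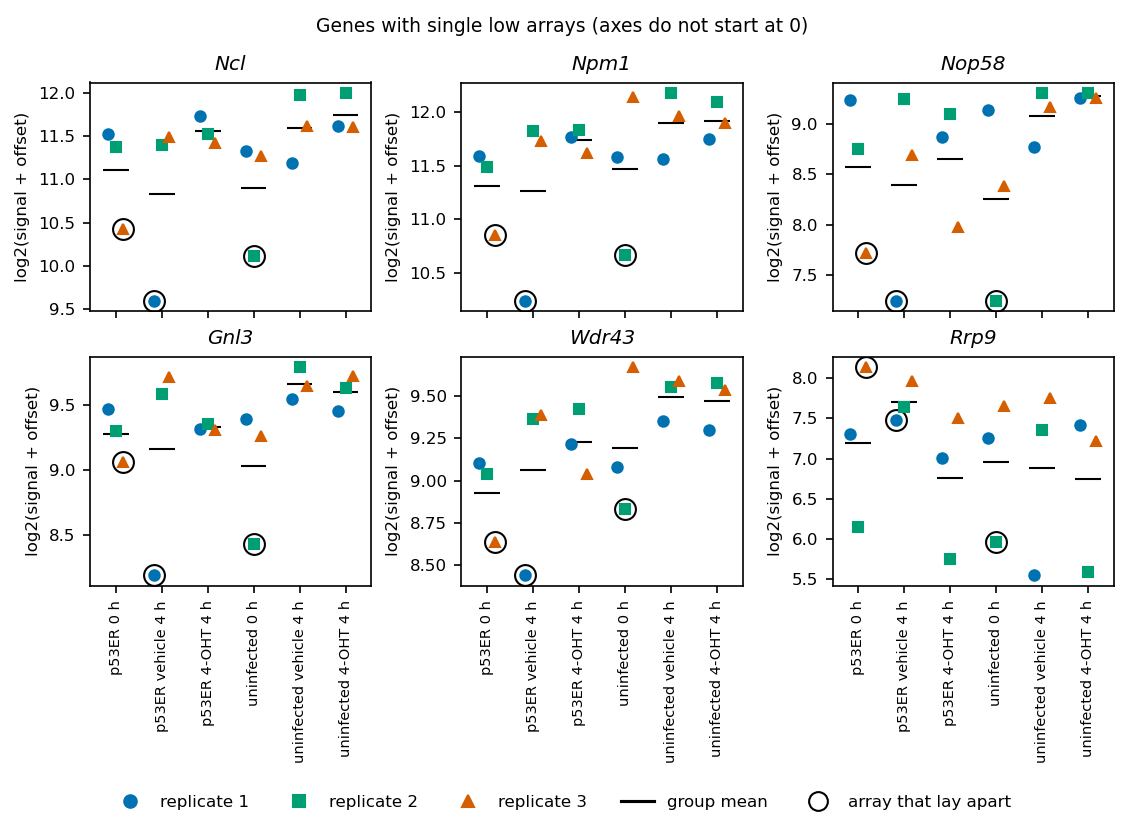
Log2 signal of 6 genes on each array by group, with the replicate number as colour and shape, the group mean as a line and circles around the 3 arrays that lay apart. Ncl, Npm1 and Nop58 are low on the circled arrays, Ncl at 9.59 to 10.4 against 11.19 to 12.002 elsewhere, while Rrp9 is low on 5 arrays of which 1 is circled.

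Within groups the median SD of the 40 was 0.28, against 0.32 over all genes tested. Over the 18 arrays 16 members spanned less than 1 log2 unit and 24 spanned more, of which Ncl, Nop58 and Rrp9 spanned more than 2. The next widest were Npm1 at 1.94, Polr1c at 1.79, Nhp2 at 1.63 and Gnl3 at 1.59.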

How the data were processed

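The authors deposited MAS5 signal intensities for 45101 probe sets on 18 arrays (6 groups of 3), per the submitters' processing notes, without a software version. The labels' protocols name Trizol extraction, and further steps are not given in the sources used here.

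Here arrays were brought to the same 2% trimmed mean (82.7) and signals were used as log2(signal + 4.13), 5% of that mean. Differences are on that scale, which understates changes of dim genes. Of the probe sets 34958 had 1 gene in the platform annotation, 932 several and 9211 none. Each gene was read by its brightest probe set on average, and the upper 60% (10916 genes, dimmest mean 4.74) were tested. All 18 arrays entered 1 limma 3.58.1 fit (R 4.3.3) with a trended, robust variance prior, 10 contrasts, and Benjamini-Hochberg adjustment over all genes. A fit with group and replicate number gave the replicate results. In 4 comparisons every pair of same-numbered arrays deviated together with a correlation above 0.1 (4-OHT against vehicle in p53ER and in uninfected cells, p53ER 4-OHT against 0 h, and p53ER against uninfected with 4-OHT, 0.17 to 0.62). In the other 6 at least 1 pair was below 0.1, the lowest pair of each running from -0.34 to 0.094. The code was tested on simulated data. The number of arrays limits the precision.

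The members and lists were chosen with earlier results of these data known. The genes named were all 40 members, and from other lists genes past the threshold, at most 4 per list and comparison, largest first. Myc and the p53 target genes were named as checks besides. Markers were named for their place at the filter. Alternatives are in the closing section.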

Additional observations from a re-analysis of the deposited data

Results flagged for a closer look

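Nop56 differed between the 2 kinds of cells in how replicate 3 stood to replicates 1 and 2. The difference of the differences, p53ER minus uninfected, was -0.72 on the log2 scale (SE 0.14, adjusted p = 0.0243 with limma over all genes), where 0.889% of all genes tested were called. In p53ER cells replicate 3 was the lowest array of all 3 groups, at 9.06, 9.45 and 8.98 at 0 h, with vehicle and with 4-OHT. In uninfected cells it was the highest of all 3, at 10.01, 10.07 and 10.17. These values are from 1 of the 2 probe sets of Nop56. By the other, replicate 3 was the highest array in p53ER cells at 0 h (9.43) and with vehicle (9.49) and the lowest in uninfected cells at 0 h (9.18), and the difference of the differences was 0.10, which was not tested. The result therefore rests on 1 probe set. Of the other 39 members 0 were called in that test. What accounts for the difference was not tested.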

How the results depend on the processing

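The group comparisons called 0 of the 40 members under every alternative run: quantile normalization, no offset or a larger one (20% of the common mean), no filter or a stricter one (upper 40%), all probe sets, a plain variance prior, array weights, only the groups compared (run for all comparisons but 4 h against 0 h over all cells), without the 3 arrays that lay apart, without replicate 3 and with each array left out. The replicate block changed no call of a member, with 0 called in each of the 10 comparisons. The median of the 40 for 4-OHT against vehicle in p53ER cells ran from -0.17 to -0.055 over the alternatives and from -0.18 to -0.070 with each array left out. With single arrays left out the median changed sign in p53ER cells with 4-OHT against 0 h (-0.095 to 0.14), in the difference of the 4-OHT effects (-0.25 to 0.049), in uninfected cells for 4-OHT minus vehicle (-0.12 to 0.14), and in uninfected cells against 0 h with 4-OHT (-0.064 to 0.22) and with vehicle (-0.042 to 0.23). The count of members past the threshold for replicate 3 ran from 15 to 21 over the alternatives and from 13 to 19 with each array left out, and its median from 0.23 to 0.27 and from 0.22 to 0.30. For the 3 numbers together the counts were 12 to 19 and 9 to 14. Rrp9, Utp20, Noc4l and Gnl2 missed the threshold for replicate 3 under at least 1 alternative. Rrp12, Nolc1, Heatr1, Bysl, Nop2 and Rrp1b passed it under at least 1. With all probe sets, Dkc1 passed it by a further probe set. Precision is limited by 3 arrays per group, with a 95% interval of about 0.48 to either side.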
